A study of Prunus sibirica with 30 samples.

Results

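Transcript levels in flowers of 2 clones of Prunus sibirica, the Siberian apricot, were compared after 1 h at -4 °C. The comparison set the 3 libraries of the frost-resistant clone CR (number 453) against the 3 of the frost-sensitive clone NC (number 371), 6 of the 30 libraries of the study. It covered all 143 genes with complete values in the deposited table, on log2(FPKM + 1), both as deposited and with the median of every library subtracted. FPKM counts sequenced fragments by the kilobase of gene and by a scaled library size.

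Both groups at 1 h were cooled, although the labels call CR the treatment group and NC the control group. Flowers of the same clones taken at 0 h and after 2 h at -4 °C, 3 libraries each, served as further comparisons. The temperature entry is -4 °C for the 0 h libraries too, and 0 h is read here as the start of cooling. The labels give no age of the trees. Their tissue entry is pistil, but the protocol describes flowers and flower buds. No gene among the 143 was named as a ribonuclease S or a STIG1 protein, so the pistil label could not be checked from defining markers. Each clone is 1 genotype, so frost resistance cannot be told apart from any other difference between these clones. No group was kept for 1 h at a mild temperature, and the labels do not say whether replicates came from separate trees or branches. The p-values therefore measure the spread between these libraries, which may be partly technical.

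A ribosome is built from a small (40S) and a large (60S) subunit, and plants carry several gene copies for most of their proteins. These genes are among the most strongly transcribed in growing floral tissue. Open flowers lack the bud scales that shelter the ovary in winter, and the pistil is the part of an apricot flower most easily killed by spring frost. Water channels, polyamines, chaperones and dehydration-induced proteins are among the plant components studied in chilled tissue.

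The 143 genes were the abundant end of the transcriptome, with mean levels over all libraries of 594 to 3835 FPKM, and 69 of them encode ribosomal proteins. At 1 h single values ran from 396 to 4650 FPKM. The fewest reads behind a value were 4403, a counting error of 1.51%. The libraries at 1 h held 2584547 to 3168401 reads in these genes. Replicates spread little, with a median SD on the log2 scale of 0.083 in CR and 0.094 in NC at 1 h, against 0.25 in CR at 0 h and 0.28 in NC at 2 h. All 10 groups shared 1 estimate of the spread in the main test, so the noisier groups widened the errors at 1 h.

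The general level of these abundant genes was higher in the hardy clone. The median gene stood at 963, 887 and 944 FPKM in the CR libraries and at 766, 811 and 769.7 FPKM in the NC libraries. Every CR library lay above every NC library. The means were 931 ± 39.6 and 782 ± 24.8 FPKM (SD, n = 3), and the exact two-sided permutation p was 0.1, which no 3 against 3 design can go below. Together the 143 genes took 15.2% ± 0.594 of the scaled library size in CR and 13.6% ± 0.740 in NC, a difference of 1.61 percentage points with the same exact p of 0.1. That size was inferred from the steps between FPKM values, was a whole number in 0 of 30 libraries, and how the authors scaled it is unknown. An FPKM value depends on the rest of the library, and more RNA of these genes and less RNA of other genes cannot be told apart, nor can more cells of a type and more RNA per cell. Centring took out a shift of 0.25 on the log2 scale, and values after it are called relative.

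Of the 143 genes, 68 (47.6%) passed the limma test of the clone difference at an adjusted p under 0.05. These were 59 genes higher in CR (41.3%) and 9 lower (6.29%), and 78 passed at an unadjusted p under 0.05. The median difference of all genes was 0.29, and 118 differences were above 0. The libraries of the clones did not overlap for 106 genes (74.1%), 94 of them with every CR library above every NC library (65.7%) and 12 with every one below (8.39%). Among these 106 were 39 genes that did not pass the test. Relative to the library median 54 genes passed (37.8%), 30 higher (21.0%) and 24 lower (16.8%), and their groups were apart for 93 genes (65.0%), 53 above (37.1%) and 40 below (28.0%). All 30 relatively higher genes were among the 59, and the 9 lower genes were also relatively lower. No gene passed in opposite directions. The count of 68 was 30, 41, 40 and 36 without CR replicate 1, CR replicate 3, NC replicate 1 and NC replicate 3, and 30 genes (25 higher and 5 lower) passed whichever library was left out. The relative split moved with the processing. It was 47 higher and 16 lower when libraries were centred on the genes that are not ribosomal. When a trend with gene length was taken out before the usual centring, it was 14 higher and 23 lower.

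**Figure D1:**
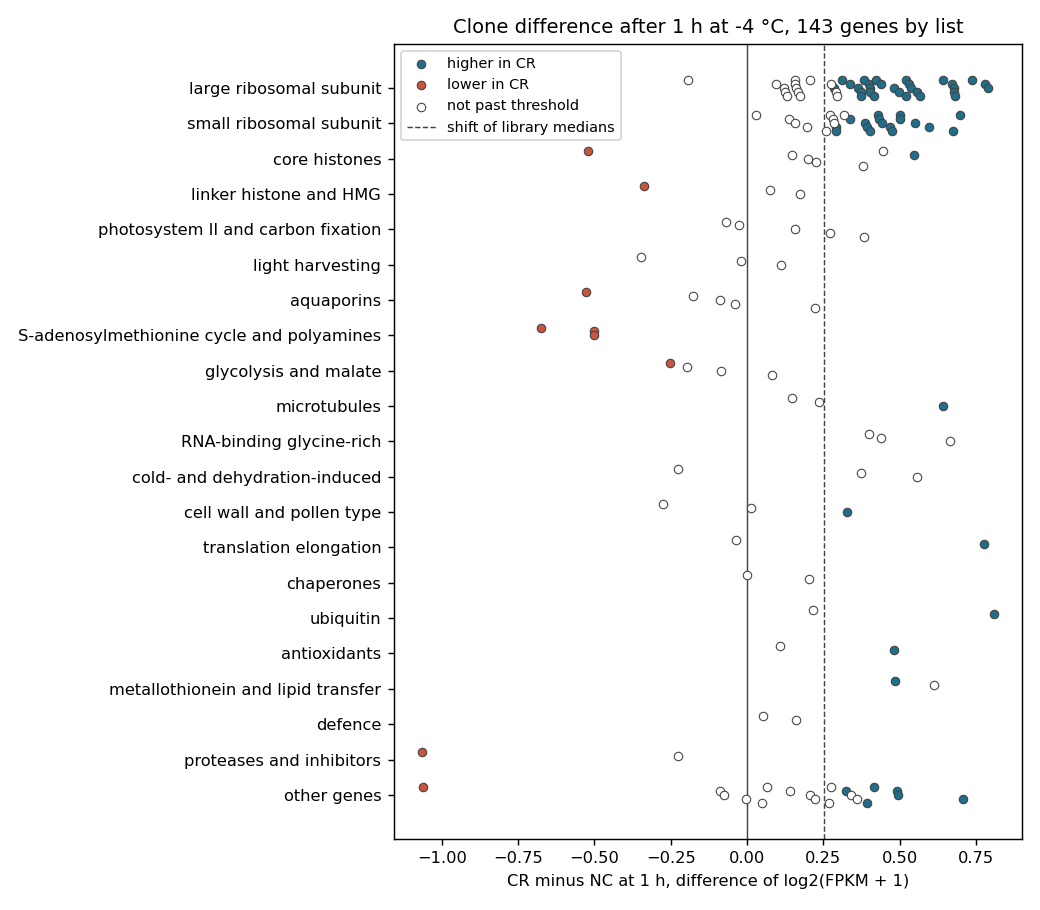
Difference between the clones after 1 h at -4 °C for all 143 genes, 1 point a gene, placed by gene list (vertical position within a list has no meaning) against CR minus NC on the log2(FPKM + 1) scale. Filled points passed the limma test, and the dashed line marks the shift of the library medians, 0.25. Filled points of the 2 ribosomal subunit lists all lie to the right of 0. The 3 genes of the S-adenosylmethionine cycle and polyamine list all lie to its left.

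Ribosomal protein genes made up most of what was higher in CR. Of 69 members 46 passed as higher and 0 as lower, with a median difference of 0.39, beside 41.3% higher and a median of 0.29 over all genes. For 64 of the 69 every CR library was above every NC library, as for 65.7% of all genes. The 74 genes that are not ribosomal had a median difference of 0.16, with 13 higher and 9 lower. The subunits were alike, with 17 of 26 small-subunit genes (median 0.39) and 29 of 43 large-subunit genes (median 0.40) higher. After centring 25 ribosomal genes were higher and 3 lower, with a median of 0.14, against 21.0% and 16.8% of all genes. Without the length trend 34 of the 69 were higher and 0 lower before centring, beside 54 higher and 6 lower of all 143 genes. The medians without it were 0.32 for the ribosomal genes and 0.29 for all genes. After centring as well, 10 ribosomal genes were higher and 5 lower, beside 14 higher and 23 lower of all genes.

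The large-subunit protein L39 (PaF106G0700026047.01, chromosome 7, 21724635 to 21725225), a very small protein of the tunnel through which the new chain leaves the ribosome, stood at 1078, 887 and 1142 FPKM in CR and 582, 628 and 579 FPKM in NC. All CR libraries were above all NC libraries, and the means were 1035 ± 133 FPKM in CR and 597 ± 27.7 FPKM in NC (SD, n = 3), a 1.74-fold difference. On the log2 scale this was 0.79 (SE 0.15, limma adjusted p = 0.000322). P3-1 (PaF106G0100000946.01, chromosome 1, 6039533 to 6040627), a plant form of the acidic stalk proteins that bind elongation factors, stood at 1292, 1163 and 1207 FPKM in CR and 706, 826 and 615 FPKM in NC, again with no overlap. Its difference was 0.78 (SE 0.203, limma adjusted p = 0.00399).

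The large-subunit protein L38 (PaF106G0100002305.01, chromosome 1, 16008809 to 16010893) stood at 1036, 915 and 1056 FPKM in CR and 549.7, 662 and 593 FPKM in NC, a difference of 0.74 (SE 0.133, limma adjusted p = 0.000226). The small-subunit zinc-finger protein S27-2 (PaF106G0100002671.01, chromosome 1, 19975999 to 19977224) stood at 905, 805 and 943 FPKM in CR and 514, 593 and 529 FPKM in NC, a difference of 0.70 (SE 0.134, limma adjusted p = 0.000345). In both genes the lowest CR library, replicate 2, was well above the highest NC library, which was also a replicate 2. Next in size were L23 (0.68), L17-2 (0.68), L23A (0.68), S29 on chromosome 8 (0.68) and L37-3 (0.67), proteins of the ribosome's core and surface, with limma adjusted p of 0.000764, 0.000603, 0.000178, 0.0042 and 0.00111. Each of these 9 genes also passed relative to the median, with relative differences from 0.42 for L37-3 to 0.54 for L39. With the length trend taken out as well, P3-1 (relative 0.26, adjusted p = 0.125) and S29 (0.12, adjusted p = 0.404) did not pass.

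At the other end of the ribosomal list stood L10, S4 and L3. L10 on chromosome 8 (PaF106G0800031311.01, chromosome 8, 13589898 to 13591105), a protein that yeast needs for the subunits to join, stood at 697, 684 and 626 FPKM in CR and 808, 806 and 686 FPKM in NC, and was the only ribosomal gene with a lower mean in CR (-0.19, limma adjusted p = 0.284). Relative to the median it was lower in CR (-0.44, adjusted p = 0.000218). S4 of the small subunit stood at 806, 743 and 744 FPKM in CR and 764, 777 and 706 FPKM in NC, a difference of 0.03 that overlapped between the clones and was relatively lower (-0.22, adjusted p = 0.01). L3, which lies near the site of peptide bond formation, differed by 0.10 (adjusted p = 0.544). L13-1 (PaF106G0200010812.01, chromosome 2, 27364761 to 27366565) was the third relatively lower ribosomal gene, at -0.12 (adjusted p = 0.0468).

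Few genes outside the ribosomal list stood as far above NC. Ubiquitin-like protein 5 (PaF106G0600024347.01, chromosome 6, 22184925 to 22186738), whose yeast counterpart Hub1 acts in the splicing of messenger RNA, had the highest difference of all 143 genes. It stood at 778, 667 and 734 FPKM in CR and 397, 439.5 and 406 FPKM in NC, with the lowest CR library above the highest NC library. Its means were 726 ± 55.7 FPKM in CR and 414 ± 22.6 FPKM in NC (SD, n = 3), a 1.75-fold difference, or 0.81 (SE 0.122, limma adjusted p = 2.42e-05). Elongation factor 1-alpha on chromosome 1 (PaF106G0100000142.01, chromosome 1, 874033 to 877141), which brings charged transfer RNA to the ribosome, stood at 799.5, 681 and 839 FPKM in CR and 396, 480.0 and 477 FPKM in NC. This gave no overlap and a difference of 0.78 (SE 0.17, limma adjusted p = 0.000997). SPIRAL1-like 1 (PaF106G0500020941.01, chromosome 5, 16331583 to 16333504), of a family that binds microtubules and directs cell expansion in Arabidopsis, stood at 1158, 1123 and 1145 FPKM in CR and 738, 770.1 and 687 FPKM in NC. Its groups were far apart, with a difference of 0.64 (SE 0.151, limma adjusted p = 0.00177) and a relative one of 0.39 (adjusted p = 0.000122). Each of these 3 genes kept its call when any 1 of the 6 libraries was left out, and so did the 9 highest ribosomal genes.

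The other genes higher in CR outside the ribosomal list included the mitochondrial ATP synthase 6 kDa subunit (0.49, limma adjusted p = 0.00358), thioredoxin H-type, a small redox protein (0.48, 0.0146), and non-specific lipid-transfer protein 1, a secreted lipid carrier (0.48, 0.0295). Xyloglucan endotransglucosylase/hydrolase 9, which cuts and rejoins wall polymers, was also higher (0.33, 0.0182). Calls were lost for thioredoxin without CR replicate 1 or 3 or NC replicate 3, for the lipid-transfer protein without CR replicate 1 or 3 or NC replicate 1 or 3, and for the hydrolase without CR or NC replicate 1. Of these 4 the ATP synthase subunit passed relative to the median (0.24, adjusted p = 0.0271), but not without CR replicate 1 or 3 or NC replicate 1 or 2, and its relative difference was -0.0039 with the length trend taken out. The lipid-transfer protein did not pass uncentred without that trend (0.29, adjusted p = 0.131). Thioredoxin passed as relatively higher when centred on the genes that are not ribosomal (0.32, adjusted p = 0.0185). With the 1 h groups fitted alone, thioredoxin (0.23, adjusted p = 0.00878) and the lipid-transfer protein (0.23, 0.0135) passed relative to the median, beside 85 of all 143 genes. A gene without a Swiss-Prot name on chromosome 2 (PaF106G0200010000.01), chosen after its values were seen, ranked among the highest at 2775, 2304 and 2829 FPKM in CR and 1484, 1684 and 1665 FPKM in NC, a difference of 0.71 (SE 0.208, limma adjusted p = 0.0102).

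**Figure D2:**
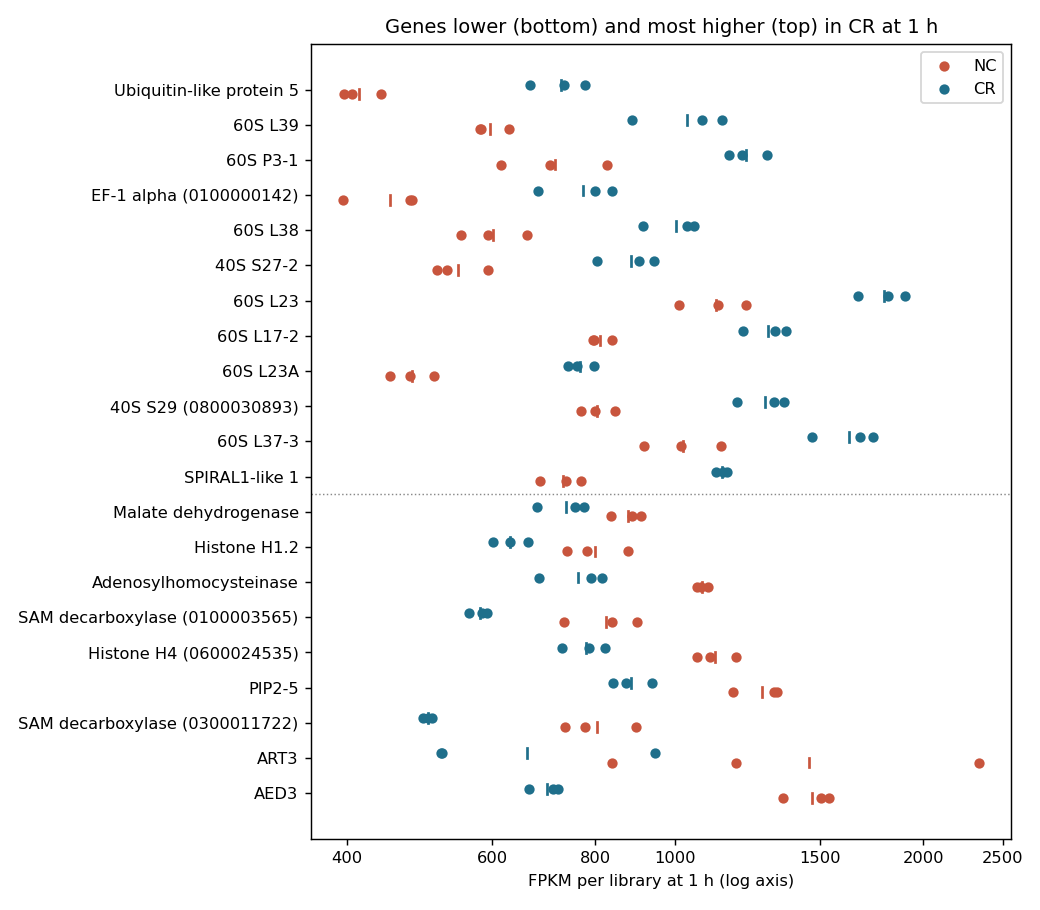
FPKM in each library at 1 h (log axis) for the 9 genes lower in CR (below the dotted line) and 12 named genes most higher in CR (above it). Points are libraries, 3 a clone, and short vertical bars are means. Only ART3 has overlapping clones among these 21 genes.

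Of the 9 genes lower in the hardy clone, 3 belong to the list of the S-adenosylmethionine cycle and polyamines, and 2 are histones. AED3 (PaF106G0200007260.01, chromosome 2, 4037081 to 4039588), an aspartyl protease that in Arabidopsis is secreted to the cell wall space and tied to immunity, stood at 712, 722 and 666 FPKM in CR and 1354, 1503 and 1537 FPKM in NC. Every CR library was far below every NC library, and the means were 699.7 ± 30.0 FPKM in CR and 1465 ± 97.3 FPKM in NC (SD, n = 3), 2.09-fold lower in CR. The difference of -1.06 (SE 0.117, limma adjusted p = 1.08e-07) was the strongest of the table by its p, and the relative one was -1.31 (adjusted p = 2.74e-10). AED3 was also lower in CR at 0 h (-1.15), 15 min (-1.01), 30 min (-0.91) and 2 h (-0.58), values given here without a test.

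All 3 genes of the S-adenosylmethionine cycle and polyamine list were lower in CR, beside 6.29% lower over all genes. S-adenosylmethionine decarboxylase supplies the propylamine groups of spermidine and spermine, the polyamines. Its gene on chromosome 3 (PaF106G0300011722.01, chromosome 3, 20154855 to 20157115) stood at 501, 508 and 495 FPKM in CR and 736, 778 and 898 FPKM in NC. These CR libraries lay within a few FPKM of each other and below every NC library, a difference of -0.68 (SE 0.124, limma adjusted p = 0.000226). The gene on chromosome 1 (PaF106G0100003565.01, chromosome 1, 25259309 to 25262021) stood at 562, 583 and 592 FPKM in CR and 734, 899 and 839 FPKM in NC, also without overlap, a difference of -0.50 (SE 0.109, limma adjusted p = 0.000997). With the length trend taken out this second gene did not pass (-0.21, adjusted p = 0.109), while its relative difference of -0.75, with no length correction, passed (adjusted p = 7.85e-06).

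Adenosylhomocysteinase (PaF106G0100001906.01, chromosome 1, 12656257 to 12658231) removes the by-product of methylation reactions that use S-adenosylmethionine. It stood at 791, 815 and 684 FPKM in CR and 1074, 1096 and 1065 FPKM in NC, and CR lay below NC throughout. Its means were 763 ± 70.0 FPKM in CR and 1078 ± 16.3 FPKM in NC (SD, n = 3), a difference of -0.50 (SE 0.106, limma adjusted p = 0.000764) and a relative one of -0.75. At 0 h the clone differences of the 3 genes were -0.63, -0.61 and -0.69, and at 2 h -0.72, 0.16 and -0.16, in the order named.

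Aquaporins are channels that let water pass the plasma membrane (PIP) or the vacuole membrane (TIP). Of 5 members 1 was lower in CR and 0 higher, with a median of -0.09, beside 6.29% lower and 41.3% higher over all genes. PIP2-5 (PaF106G0200009516.01, chromosome 2, 21257413 to 21260728) stood at 937, 873 and 841 FPKM in CR and 1176, 1329.7 and 1319.7 FPKM in NC, with no overlap and a difference of -0.53 (SE 0.126, limma adjusted p = 0.00179). TIP1-1 (-0.18), PIP1-4 (-0.09), PIP1-2 (-0.04) and PIP2-7 (0.22) did not pass, with limma adjusted p from 0.196 to 0.792. Relative to the median 3 aquaporins were lower, beside 16.8% of all genes, namely PIP2-5 (-0.78), TIP1-1 (-0.43) and PIP1-2 (-0.29), with adjusted p of 1.59e-05, 0.00415 and 0.00187. PIP1-2 did not pass when centred on the genes that are not ribosomal (-0.20, adjusted p = 0.0595) or with the length trend taken out (-0.12, 0.16). PIP1-4 passed as relatively lower (-0.34) with the replicate number as a block (adjusted p = 0.0468) and with the 1 h groups fitted alone (0.000558). PIP2-7 passed as higher before centring with those groups fitted alone (0.22, adjusted p = 0.0138).

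AED3, both decarboxylase genes, adenosylhomocysteinase and PIP2-5 kept their calls when any 1 library was left out. The other 4 lower genes did not. Malate dehydrogenase, which interconverts malate and oxaloacetate (PaF106G0100000486.01, chromosome 1, 2974048 to 2976318), stood at 775, 757 and 679.6 FPKM in CR and 887, 908 and 835 FPKM in NC. Its clones did not overlap, and its difference of -0.25 (SE 0.101, limma adjusted p = 0.042) lost the call without any 1 of the 6 libraries and with the length trend taken out (-0.18, adjusted p = 0.14), while the relative difference of -0.50 kept it without any. ART3 (PaF106G0500019452.01, chromosome 5, 7804224 to 7808425), whose description names a transcript antisense to ribosomal RNA, stood at 519.7, 521 and 945 FPKM in CR and 838, 2341 and 1186 FPKM in NC. The clones overlapped, replicates varied more than in any other gene (coefficients of variation of 37.0% and 54.1%), and the difference of -1.06 (SE 0.374, limma adjusted p = 0.0263) became -0.65 (adjusted p = 0.168) without NC replicate 2. ART3 also lost its call without CR replicate 1 or 2 and without the length trend (adjusted p = 0.0973, 0.0778 and 0.0912).

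Histones package DNA, with H2A, H3 and H4 in the core particle and H1 on the linker between particles. Of 7 core histone genes 1 was lower, 1 higher and 5 did not pass, beside 6.29% lower and 41.3% higher over all genes. The lower one, an H4 gene on chromosome 6 (PaF106G0600024535.01, chromosome 6, 23183579 to 23184037), stood at 822, 730.2 and 787 FPKM in CR and 1186, 1104 and 1065 FPKM in NC, a difference of -0.52 (SE 0.2, limma adjusted p = 0.0369) without overlap. The higher one, an H4 gene on chromosome 2 (PaF106G0200009755.01, chromosome 2, 22446210 to 22446664), stood at 1147, 1052 and 1045 FPKM in CR and 744, 768 and 708 FPKM in NC, a difference of 0.55 (SE 0.214, limma adjusted p = 0.0387). The linker histone H1.2 (PaF106G0600025645.01, chromosome 6, 28846365 to 28847196) was lower in CR, at 631, 601 and 663 FPKM in CR and 876, 783 and 739 FPKM in NC, a difference of -0.34 (SE 0.139, limma adjusted p = 0.0476) with no overlap. All 3 calls were lost without any 1 of the 6 libraries, with adjusted p up to 0.104, 0.107 and 0.167, and H1.2 also with voom weights (0.0528) and with no mean-variance trend (0.0517). Relative to the median the chromosome 6 H4 gene (-0.77, adjusted p = 5.4e-05) and H1.2 (-0.59, 5.68e-06) were lower and the chromosome 2 gene did not pass (0.30, 0.108). When libraries were centred on the genes that are not ribosomal, the chromosome 2 gene passed as higher (0.39, adjusted p = 0.0403). H3.2 (0.15), H3.3 (0.38), H2A (0.45), H2A.1 (0.20) and both genes of the chromatin protein HMGB2 (0.07 and 0.17) did not pass. With the 1 h groups fitted alone and no centring, 92 of all 143 genes passed as higher. Among them were H2A (limma adjusted p = 9.83e-06), H3.3 (0.000228), H2A.1 (0.0296), the H4 gene PaF106G0600022341.01 (0.0258) and the second HMGB2 gene (0.041). With the length trend taken out H3.3 (0.47, adjusted p = 0.0361) and the second HMGB2 gene (0.41, 0.0114) passed as higher, and the chromosome 2 H4 gene did not pass (0.29, 0.216).

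Genes of photosynthesis, which mark green tissue such as sepals and the ovary wall, showed no called difference before centring in the main test. Of 8 members 0 passed, at a median of 0.04, and 4 had a positive difference, while 47.6% of all genes passed and 118 of 143 were positive. Their summed level was 11126 to 13046 FPKM in the CR libraries and 10300.1 to 13428 FPKM in the NC libraries, so the clones overlapped. LHCII type I (PaF106G0300012505.01, chromosome 3, 15765392 to 15766500), a light-harvesting protein of photosystem II, stood at 1469.9, 1256 and 1378 FPKM in CR and 1652, 1927 and 1643 FPKM in NC, below NC in every library, with a difference of -0.35 (SE 0.191, limma adjusted p = 0.13). Relative to the median it was lower (-0.60, adjusted p = 0.000135), as was chlorophyll a-b binding protein 151 (-0.27, 0.0262), which lost that call without CR replicate 1 or 2 or NC replicate 2 or 3 and with centring on the genes that are not ribosomal. The other 6 were CP26 (0.11), the Rubisco small chain (0.16), ferredoxin-1 (-0.03), the photosystem II 10 kDa polypeptide (0.38) and oxygen-evolving enhancers 1 (0.27) and 3 (-0.07). They did not pass either way in the main test. Enhancer 1 passed as higher before centring with the length trend taken out (0.42, adjusted p = 0.0387). Ferredoxin-1 passed as relatively lower with that trend out (-0.47, 0.01). The 10 kDa polypeptide passed as higher before centring without NC replicate 2 (0.47, 0.0388). With the 1 h groups fitted alone and no centring, 106 of all 143 genes passed. Among them LHCII type I was lower (limma adjusted p = 0.00266), and the 10 kDa polypeptide (0.00153) and enhancer 1 (0.011) were higher. After centring that fit called 85 genes, with ferredoxin-1 (-0.28) and enhancer 3 (-0.32) also lower (adjusted p = 0.0243 for both).

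Of 3 genes known for induction by cold or drought, 0 passed as higher and 0 as lower at 1 h, against 41.3% and 6.29% of all genes. ARG2 (PaF106G0800029367.01, chromosome 8, 23489068 to 23489630), named for its induction by auxin and related to late embryogenesis proteins, stood at 1156, 997 and 1388 FPKM in CR and 755, 759 and 878 FPKM in NC. Every CR library was above every NC library, yet the difference of 0.56 (SE 0.401, limma adjusted p = 0.25) did not pass with the spread pooled over all groups. The small membrane protein RCI2B stood at 1121, 1023 and 1202 FPKM in CR and 746, 781 and 1088 FPKM in NC, a difference of 0.37 (SE 0.257, limma adjusted p = 0.225) with overlap. The cysteine protease RD19A, dehydration-induced in Arabidopsis, stood at 555, 482 and 556 FPKM in CR and 559, 647 and 658 FPKM in NC, with CR below NC throughout and a difference of -0.23 (SE 0.198, limma adjusted p = 0.341). With the 1 h groups fitted alone all 3 passed, ARG2 and RCI2B as higher and RD19A as lower, at adjusted p of 3.97e-05, 0.00385 and 0.0142. That fit called 106 genes in all, 92 higher and 14 lower, among them each of the 68.

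The metal-binding metallothionein-like protein type 2 (PaF106G0600024567.01, chromosome 6, 23326826 to 23327992) and GRP1A (PaF106G0800031435.01, chromosome 8, 12699316 to 12700308), a glycine-rich protein that binds RNA, were higher in every CR library without passing. Metallothionein stood at 1243, 1104 and 1184 FPKM in CR and 597, 742 and 1026 FPKM in NC, a difference of 0.61 (SE 0.341, limma adjusted p = 0.135). GRP1A stood at 3201, 2861 and 3160.0 FPKM in CR and 1713, 2308 and 1839.8 FPKM in NC, a difference of 0.66 (SE 0.365, limma adjusted p = 0.13), the highest of any gene that did not pass. With the 1 h groups fitted alone their adjusted p was 0.000123 and 1.16e-05. The other members of the glycine-rich RNA-binding list, glycine-rich protein 2 (0.40) and mitochondrial glycine-rich RNA-binding protein 2 (0.44), did not pass in the main test.

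GAPC2 (-0.08), cytosolic aldolase (-0.20) and enolase (0.08), enzymes of glycolysis, were among the genes that did not pass before centring, and after it aldolase (-0.45, adjusted p = 1.27e-06) and GAPC2 (-0.33, 0.00186) were lower in CR, GAPC2 not without the length trend (adjusted p = 0.198). The chaperones HSP90-2 (0.00) and HSC70 (0.20) did not pass. HSP90-2 was relatively lower (-0.25, 0.0237), and its sign turned with the length trend taken out (0.10, adjusted p = 0.253), as did that of HSC70, from -0.05 to 0.27 (adjusted p = 0.0228). The relative call of HSP90-2 was also lost when centred on the genes that are not ribosomal (-0.16, adjusted p = 0.177). It was lost without CR replicate 3 or NC replicate 1 as well. Tubulin alpha (0.23) and beta-1 (0.15) of the microtubules, polyubiquitin (0.22), cytosolic ascorbate peroxidase, which removes hydrogen peroxide (0.11), defensin-like protein 2 (0.16), thaumatin-like protein (0.05) and histidine-containing phosphotransfer protein 1, a cytokinin signal carrier (0.22), did not pass. With the length trend taken out, and no centring, 7 of these genes passed as higher, beside 54 of all 143 genes in that fit. The 7 were HSC70 (0.56, adjusted p = 0.00621), the phosphotransfer protein (0.52, 0.0115), polyubiquitin (0.49, 0.0323), tubulin alpha (0.48, 0.0148), HSP90-2 (0.38, 0.0294), tubulin beta-1 (0.36, 0.0364) and ascorbate peroxidase (0.34, 0.0358). Arabinogalactan protein 31 of the cell wall (-0.28) and the Olee1-like protein, of a family known from olive pollen (0.01), did not pass either, and both were relatively lower (-0.53 and -0.24, adjusted p = 0.00415 and 0.00042), Olee1 not with the other centring (adjusted p = 0.113).

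Polyphenol oxidase (PaF106G0400017880.01, chromosome 4, 2729366 to 2731676), which oxidises phenols when tissue browns, was the most abundant gene in both clones. It stood at 4183, 4109.8 and 4153 FPKM in CR and 4123, 4472 and 4650.5 FPKM in NC, with overlap and a difference of -0.09 (SE 0.141, limma adjusted p = 0.595). Peptidyl-prolyl cis-trans isomerase, which helps proteins fold, came next among named genes in both, with 3336 ± 97.4 FPKM in CR and 2758 ± 165 FPKM in NC (SD, n = 3) and did not pass (0.28, adjusted p = 0.121). GRP1A followed in CR and chlorophyll a-b binding protein 151 in NC. Relative to the median polyphenol oxidase was lower in CR (-0.34, adjusted p = 0.021), a call lost with the length trend taken out (-0.06, adjusted p = 0.748), with the other centring (-0.25, 0.0811) and without CR replicate 1 or 3 or NC replicate 3.

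Copies of a gene did not always share the difference of their family. In 14 families 29 genes shared a Swiss-Prot name, letter case aside, and for 4 families the copies lay more than 0.5 apart. Reads can be split between near-identical copies, so single copies are less certain than their sums. The 3 H4 genes differed by -0.52, 0.23 and 0.55, and their sum was 2645 ± 131 FPKM in CR and 2532 ± 172 FPKM in NC (SD, n = 3), a difference of 0.06. The chromosome 6 copy of elongation factor 1-alpha (PaF106G0600022515.01, chromosome 6, 6505948 to 6508873) stood at 735, 726 and 615 FPKM in CR and 749, 738 and 642 FPKM in NC, a difference of -0.04 that overlapped, beside 0.78 for the chromosome 1 copy. It was relatively lower (-0.29, adjusted p = 0.0124), a call lost with the length trend taken out, with the other centring and without CR replicate 3 or NC replicate 1. The chromosome 1 copy made up 48.4% to 57.7% of their sum in the CR libraries and 34.6% to 42.6% in the NC libraries.

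The same held for L10 and L23a, 2 families chosen after their values were seen. The L10 copy on chromosome 6 (PaF106G0600021832.01) was higher in CR (0.44, limma adjusted p = 0.0222) and held 59.3% to 60.1% of the L10 sum in CR and 48.0% to 50.3% in NC. The L23A copy on chromosome 6 held 53.7% to 54.8% of its sum in CR and 44.3% to 45.4% in NC, against a difference of 0.12 (adjusted p = 0.363) for the copy on chromosome 2. These shares did not overlap between the clones and do not change with library scaling. The copies of the other 10 families lay at most 0.24 apart.

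**Figure D3:**
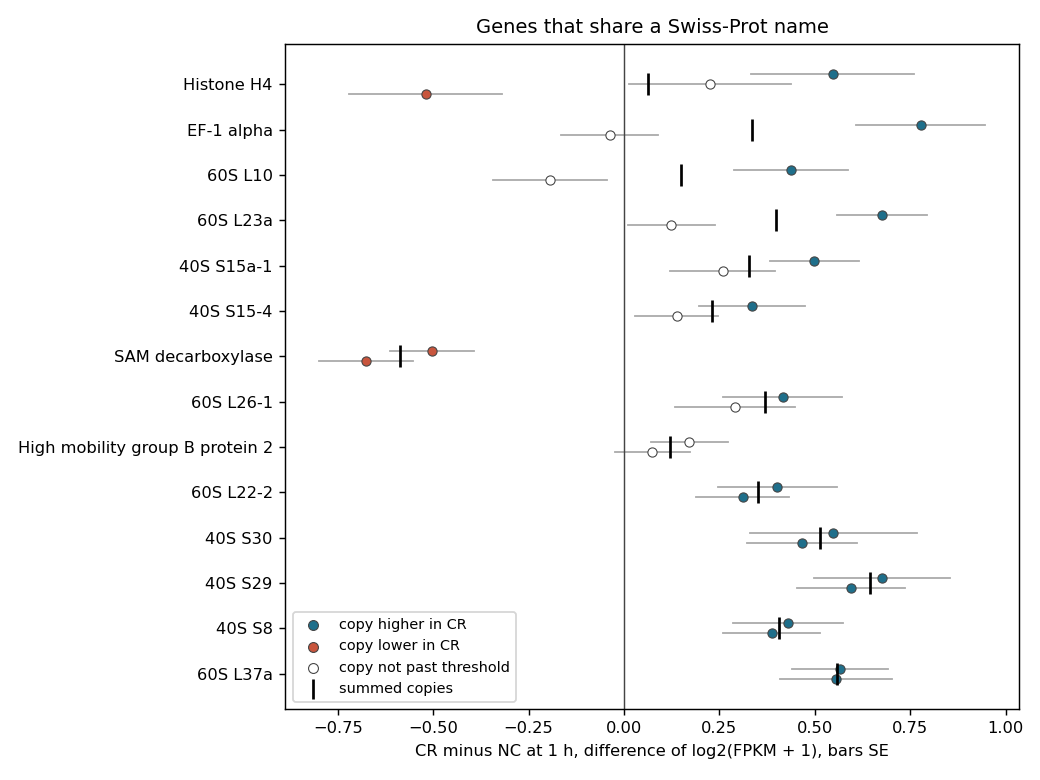
CR minus NC at 1 h on the log2(FPKM + 1) scale for the 14 families of genes that share a Swiss-Prot name, with the SE of each copy as a bar and the summed copies as a black tick. Copies of histone H4, elongation factor 1-alpha, L10 and L23a lie more than 0.5 apart, and those of the other families lie close together.

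Shorter genes had larger differences. The Spearman rank correlation of the clone difference with gene length was -0.55 over the 143 genes, -0.55 within the 69 ribosomal genes and -0.41 within the other 74. It describes genes of the same 6 libraries, which share their RNA quality and library preparation, and genes are not independent replicates. The 48 shortest genes (345 to 716 bases) had a median difference of 0.44, the 47 of middle length 0.34 and the 48 longest (1109 to 2480.0 bases) 0.13. Of the longest 6 were higher and 6 lower in CR, and of the shortest 31 and 1. The same correlation was -0.70 for the clone difference at 0 h and -0.42 at 2 h. With the length trend taken out of each library 60 genes passed, 54 higher and 6 lower, of which 48 were among the 68. The part of library preparation or RNA quality in this relation was not tested.

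**Figure D4:**
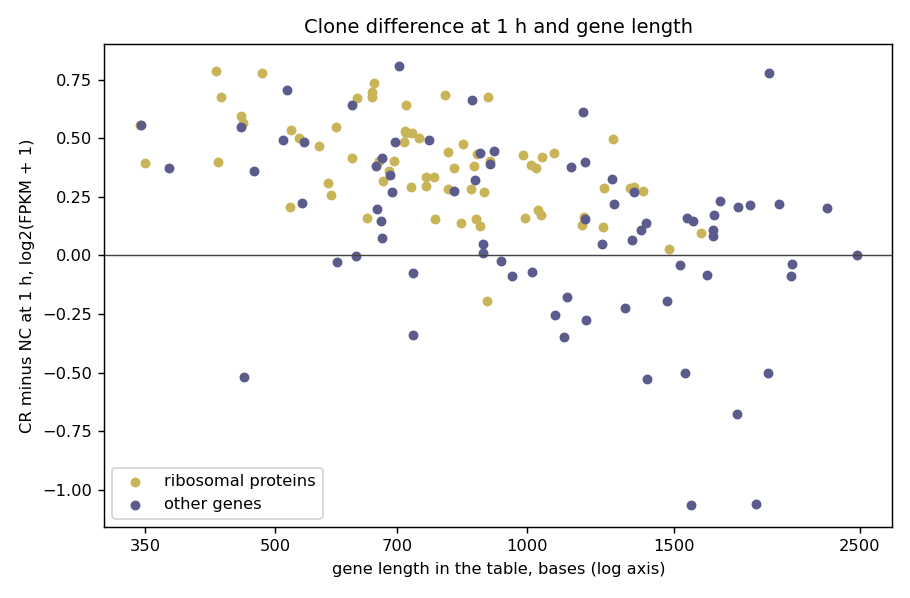
CR minus NC at 1 h on the log2(FPKM + 1) scale against gene length in bases (log axis), 1 point a gene. Differences fall with length in ribosomal genes and in the others, and the genes below -0.4 include 1 short gene, an H4 gene, among long ones.

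The clone difference at 1 h was then set against that at 0 h. Only histone H1.2 (0.699% of 143) differed between the times, and 35 genes did so at an unadjusted p under 0.05. At 0 h H1.2 stood at 1133, 722 and 822 FPKM in CR and 696, 594 and 559.8 FPKM in NC, with CR above NC in every library, the reverse of 1 h. The clone difference was 0.51 at 0 h and -0.34 at 1 h, a change of -0.85 (SE 0.197, limma adjusted p = 0.0255), or -0.58 relative to the median. The uncentred call was kept in 5 of 12 fits that left out 1 library, and the relative one in 12 of 12. The chromosome 6 H4 gene went the same way, from 0.37 to -0.52, but did not pass (adjusted p = 0.129). Over all genes the median contrast was -0.28. Replicates in CR at 0 h spread widely, and the count was 32 without CR_0h replicate 2, 2 without NC_0h replicate 1, and 0 without CR_0h replicate 1, NC_0h replicate 2 or 3, CR_1h replicate 1 or 2 or NC_1h replicate 1 or 2. After centring it was 6 without NC_0h replicate 1 and 2 without CR_0h replicate 2. All 59 genes higher at 1 h also had a positive difference at 0 h, and 7 of the 9 lower genes a negative one. The median difference of all 143 genes at 0 h was itself 0.59, so a positive sign there is not particular to the 59.

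Against 2 h the clone difference at 1 h changed in 113 genes (79.0%), 109 of them lower at 1 h (76.2%) and 4 higher (2.8%). The median clone difference was 0.84 at 2 h and 0.29 at 1 h, beside 0.28 after 30 min, 0.16 after 15 min and 0.59 at 0 h. Differences at 15 and 30 min were not tested against 1 h. The median contrast over all genes was -0.58, and the NC libraries at 2 h had a lower median level (616 ± 115 FPKM) than those at 1 h (782 ± 24.8 FPKM). After centring, which took out -0.48, 13 genes passed (9.09%), 8 higher at 1 h (5.59%) and 5 lower (3.5%). With libraries centred on the genes that are not ribosomal the count was 70, 7 higher and 63 lower. Of the 69 ribosomal genes 66 were among the 109. Without NC_2h replicate 2 the counts were 75 before and 2 after centring, and without NC_2h replicate 1, the only one of its group near the 1 h level, 119 and 35. The centred count was also 5 without CR_2h replicate 1 and 7 without CR_2h replicate 3, CR_1h replicate 2 or 3 or NC_1h replicate 1 or 2.

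The 4 genes that passed with a higher clone difference at 1 h than at 2 h are described first. Metallothionein stood at 1081, 1084 and 1240.2 FPKM in CR and 2011, 5661 and 2102 FPKM in NC at 2 h, with every NC library above every CR library, the reverse of 1 h. Its clone difference went from 0.61 at 1 h to -1.35 at 2 h, a contrast of 1.96 (SE 0.483, limma adjusted p = 0.00483). ARG2 stood at 1509, 1436 and 1593 FPKM in CR and 3026, 6019 and 1744 FPKM in NC at 2 h and also turned, from 0.56 to -1.07, a contrast of 1.62 (SE 0.567, limma adjusted p = 0.015). NC replicate 2 held the highest value of both genes at 2 h, and without it the contrasts were 1.47, still past the threshold, and 1.16, not past it (adjusted p = 0.0679).

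Polyubiquitin is cut into the ubiquitin units that mark proteins for breakdown. It stood at 849, 692 and 709 FPKM in CR and 1150.5, 1617 and 1002 FPKM in NC at 2 h, with a clone difference of -0.72 there and a contrast of 0.94 (SE 0.224, limma adjusted p = 0.00483). RD19A stood at 531, 518 and 457 FPKM in CR and 877, 1254 and 770.3 FPKM in NC at 2 h, a clone difference of -0.92 and a contrast of 0.69 (SE 0.28, limma adjusted p = 0.0283), a call kept in 8 of 12 fits that left out 1 library. In both genes every NC library at 2 h was above every CR library. Relative to the median the contrasts of the 4 genes were 2.44, 2.10, 1.42 and 1.17, in the order of metallothionein, ARG2, polyubiquitin and RD19A, and were kept in 11, 3, 12 and 6 of 12 fits that left out 1 library. PIP1-4 (0.78), thioredoxin H-type (0.71), PIP2-5 (0.62) and ubiquitin-like protein 5 (0.50) were the other genes relatively higher at 1 h, and are named to complete that count.

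LHCII type I changed most the other way. It stood at 1505, 1343 and 1247 FPKM in CR and 913, 617 and 608 FPKM in NC at 2 h, where every CR library was above every NC library, and its clone difference went from -0.35 at 1 h to 0.96 at 2 h. The contrast was -1.31 (SE 0.27, limma adjusted p = 0.00483), and -0.82 relative to the median (adjusted p = 0.0016), and it passed without any 1 of the 12 libraries. Chlorophyll a-b binding protein 151 (-0.90 (SE 0.239, limma adjusted p = 0.00483)) and the H4 genes PaF106G0600022341.01 (-0.98 (SE 0.3, limma adjusted p = 0.0078)) and PaF106G0600024535.01 (-0.88 (SE 0.283, limma adjusted p = 0.00986)) followed and did not pass relative to the median. The relative list of lower genes was completed by the ribosomal proteins L9-1 (-0.28), S15-4 (-0.28), S16 (-0.27) and S18 (-0.26), of which L9-1, S15-4 and S16 kept the call in 2, 5 and 2 of 12 fits that left out 1 library.

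Values for the genes lower in CR at 1 h differed among the times. At 2 h 5 of the 9 were still negative, with AED3 at -0.58, ART3 at -0.66, the chromosome 3 decarboxylase gene at -0.72, PIP2-5 at -0.66 and adenosylhomocysteinase at -0.16. The chromosome 6 H4 gene (0.36), H1.2 (0.49), malate dehydrogenase (0.16) and the chromosome 1 decarboxylase gene (0.16) were positive. At 15 and 30 min all 9 were negative, from -2.13 to -0.05 and from -1.19 to -0.06. The 59 higher genes were all positive at 30 min and 2 h, and 57 of them at 15 min. Medians over all 143 genes were also positive at 30 min (0.28), 2 h (0.84) and 15 min (0.16), so these signs are not particular to the 59.

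**Figure D5:**
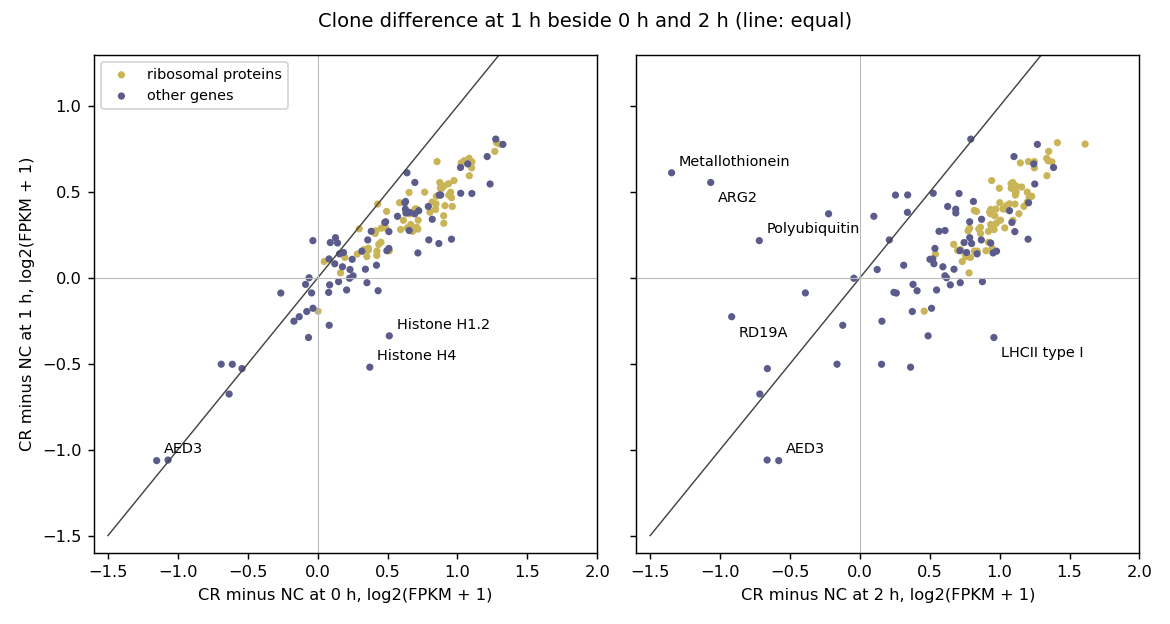
CR minus NC at 1 h (vertical axis) against CR minus NC at 0 h (left) and 2 h (right), on the log2(FPKM + 1) scale, 1 point a gene, with a line of equal values. Most points lie right of the line in both panels, that is with a larger difference at 0 h and at 2 h than at 1 h, and metallothionein, ARG2, polyubiquitin and RD19A lie left of it at 2 h.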

How the data were processed

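Per the labels, RNA was sequenced from 2 clones at 5 times of cooling, 3 libraries a group. The labels name the tissue as pistil, and the protocol describes flowers and flower buds. The authors deposited FPKM values for each gene and library. The submitters' processing notes name HISAT2, Picard, SAMtools 0.1.18 and GATK; the sources used here do not give the counter, annotation or genome build, and coordinates are those of the deposited table. Of 144 entries 1 incomplete entry was left out. Gene names are Swiss-Prot matches in the table (137 of 143 genes). FPKM times length, divided by the step between values inferred for each library, gave whole reads for 4290 of 4290 values (tolerance 1e-06 of the value), and the step gave the scaled library size. Reads served for depth and for voom.

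Values of log2(FPKM + 1) were tested with limma 3.58.1 (R 4.3.3), with 10 group means over 30 libraries, a mean-variance trend, 28.1 moderated degrees of freedom, two-sided p and Benjamini-Hochberg adjustment over all 143 genes at 0.05. A filter (FPKM of at least 1 in 3 libraries) removed no gene. Relative values were centred on each library's median. Contrasts were CR against NC at 1 h, and that difference against those at 0 h and 2 h. The fit was tested on simulated data. Genes and lists were chosen with earlier results of these data known. Named genes are the 12 highest and lowest called, 8 after centring, 4 in the contrasts between times, the 3 most abundant per clone, all members of lists of up to 8, and the 3 highest and lowest of longer lists.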

Additional observations from a re-analysis of the deposited data

Results flagged for a closer look

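Contrasts that set the clone difference at 1 h against that at another time were picked out because the difference between times itself passed the limma test. Against 0 h this held for 1 gene before centring and 1 after, in both cases histone H1.2, at -0.85 and -0.58. Against 2 h it held for 113 genes before centring and 13 after.

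Before centring the genes with the highest contrast of 1 h against 2 h were metallothionein-like protein type 2 (1.96), ARG2 (1.62), polyubiquitin (0.94) and RD19A (0.69), and after centring the same 4 at 2.44, 2.10, 1.42 and 1.17. The lowest before centring were LHCII type I (-1.31), the H4 genes PaF106G0600022341.01 (-0.98) and PaF106G0600024535.01 (-0.88) and chlorophyll a-b binding protein 151 (-0.90). After centring they were LHCII type I (-0.82) and the ribosomal proteins L9-1 (-0.28), S15-4 (-0.28) and S16 (-0.27). Libraries of NC at 2 h differed in their general level, with medians of 544 to 749 FPKM, and the part of that spread in these contrasts was not tested.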

How the results depend on the processing

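Pseudocounts of 0.1 and 10, no filter, no mean-variance trend and voom on recovered reads left every count of called genes within 1.5 times the value given, voom at 66 and 54 for 1 h before and after centring. Tested on the genes at or above the median level alone, with 72 genes in place of 143, the counts at 1 h were 36 and 29 (before and after centring), those against 0 h 0 and 0, and that against 2 h 56 before centring. With the compared groups fitted alone they were 106 and 85 at 1 h, 4 and 4 against 0 h, and 21 after centring against 2 h. With the length trend taken out the count against 0 h was 2 before centring, and the relative values of HSP90-2 (0.10), the ATP synthase 6 kDa subunit (-0.0039) and HSC70 (0.27) reversed. Centring on genes that are not ribosomal gave 70 against 2 h. The median level of the genes that are not ribosomal differed by 91.0 FPKM, against 149 FPKM for all. Beyond these constructions the cause was not tested.

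Leaving out 1 library at a time gave counts of 30 to 60 at 1 h and 41 to 52 after centring, 0 to 32 and 1 to 6 against 0 h, and 75 to 119 and 2 to 35 against 2 h. It moved the difference in median level to 133 to 171 FPKM and that in the share of the inferred library size to 1.34 to 2.03 percentage points. A lone pair in a group was assumed to vary like the other groups.

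Replicate numbers are shared by the groups. Deviations of same-numbered libraries correlated at 0.47, -0.35 and 0.33, and 1 of 3 CR libraries correlated best with its own number. These values cannot decide whether the numbers mark pairs, since a group holds only 3 libraries. With the replicate number as a block the counts were 69 and 54 at 1 h, 1 and 1 against 0 h, and 113 and 11 against 2 h. The fewest reads behind a value at 1 h were 4403, and replicate pairs differed by 29.5 to 285 times the counting variance, so depth set a small part of the spread.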
